A study of Mus musculus with 6 samples.

Results

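The genes described here are the 5 core genes of the noncanonical NF-kB route (Map3k14, Nfkb2, Relb, Birc2 and Birc3) and 5 genes of the TRAF adaptor family other than Traf6 (Traf1, Traf2, Traf4, Traf5 and Traf7). They were chosen by name, with earlier results of these data known. They are 10 of the 22180 genes that had a probe set annotated to a single symbol. Each of the 10 had 1 such probe set, so no choice between probe sets was needed. A further probe set that names Traf5 together with Rcor3 was not used.

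RNA came from LSK cells, the lineage-negative, Sca1-positive and cKit-positive bone marrow fraction that holds stem cells and multipotent progenitors, and was hybridised to Affymetrix MoGene 2.0 ST arrays, 1 array per sample. The KO group had 3 samples from mice carrying transplanted Tifab-/- marrow, and the WT group had 3 samples from mice carrying Tifab+/+ marrow. Hosts of either group were Boy/J mice irradiated with 7 and 4.75 Gy given 3 h apart. The labels say 3 months without settling if that is an age or a time since transplantation, and mention no sort on donor origin, so residual host cells cannot be told apart from donor cells. The study set out to compare the genotypes after engraftment and before marrow failure, with Toll-like receptor and TRAF6 signalling named in its title.

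In the noncanonical route, receptors of the TNF family such as the lymphotoxin beta receptor, CD40 and the BAFF receptor stabilise the kinase NIK, which in resting cells is continually degraded by a complex of TRAF2, TRAF3 and the ubiquitin ligases cIAP1 and cIAP2. NIK activates the kinase IKK-alpha, the precursor p100 is cut to p52, and p52 enters the nucleus with RELB. NIK turnover and p100 processing happen on proteins, and arrays of RNA do not measure them. Several genes of the route, among them Nfkb2, Relb, Birc3 and Traf1, are themselves known NF-kB target genes.

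Sequence near start sites is shown for 3 of these known target genes, from RefSeq on GRCm38.p6. Some of it holds matches to a kappaB consensus, a pattern of letters that NF-kB dimers are known to recognise. The rest, in the windows searched, holds no match to that pattern. RefSeq windows of 300 bases, 250 before and 50 after a start site, were at hand for 9 of the 10 genes, 12 windows in all, with 3 for Nfkb2 and 2 for Birc2. Relb is named only. The kappaB consensus was searched on either strand as GGGRNWYYCC (R is A or G, N any base, W A or T, Y C or T). Capitals mark its matches. Other forms of the site were not searched.
Nfkb2, first of its 3 start sites, chr19:46304587-46304736, plus strand: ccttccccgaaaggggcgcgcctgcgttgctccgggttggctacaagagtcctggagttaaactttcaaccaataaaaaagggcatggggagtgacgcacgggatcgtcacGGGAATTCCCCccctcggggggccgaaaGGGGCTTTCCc
Nfkb2, around the match near its other start sites, chr19:46305695-46305724, plus strand: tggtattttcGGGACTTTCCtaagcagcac
Birc3, chr9:7873206-7873320, minus strand: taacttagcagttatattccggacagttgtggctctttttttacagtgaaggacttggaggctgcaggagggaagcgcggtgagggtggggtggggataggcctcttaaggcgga
Traf1, chr2:34961813-34961922, minus strand: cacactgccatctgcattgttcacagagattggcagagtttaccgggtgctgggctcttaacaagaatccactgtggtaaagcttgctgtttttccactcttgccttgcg

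The 3 Nfkb2 windows each held the consensus, and the other 9 windows of these genes did not. Over all 32851 windows of this length, 4.51% held it. In the first Nfkb2 window the run GGGAATTCCCC holds 2 overlapping matches, and GGGGCTTTCC is a separate match near the start site. The other windows of Nfkb2 overlap and share the match GGGACTTTCC, which lies just after the second start site and upstream of the third. The second window also holds GGAATGTCCC, a match on the minus strand. A match describes letters and not binding. A window without one says only that these letters are not in it.

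None of the 10 genes passed an adjusted p of 0.05 in limma, and 0 of the 22180 genes measured did. At an unadjusted p under 0.05, 1 of the 10 was lower in KO arrays, Birc3, and 0 were higher, where 10.3% of all genes were called by the same rule, 5.51% lower and 4.74% higher. Birc3 was also the only gene of the set whose groups did not overlap, against 16.1% of all genes in either direction with 8.37% in the lower direction and 7.75% in the higher. These shares are near the background, so the counts are no result about this set. By sign alone, 8 of the 10 had a log2 fold change (KO minus WT) below 0 and 2 above, with a median of -0.13. Without WT replicate 1 the count below 0 was 6 and the median -0.081. Over all genes 50% lay below 0 with a median of 0.00, and over the genes brighter than the median gene, which include all 10, 44.5% lay below 0 with a median of 0.03. The sizes were small, at -0.40 to 0.053 on the log2 scale. In bulk RNA, fewer cells of a type that uses a gene and less RNA of it per cell cannot be told apart.

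**Figure D1:**
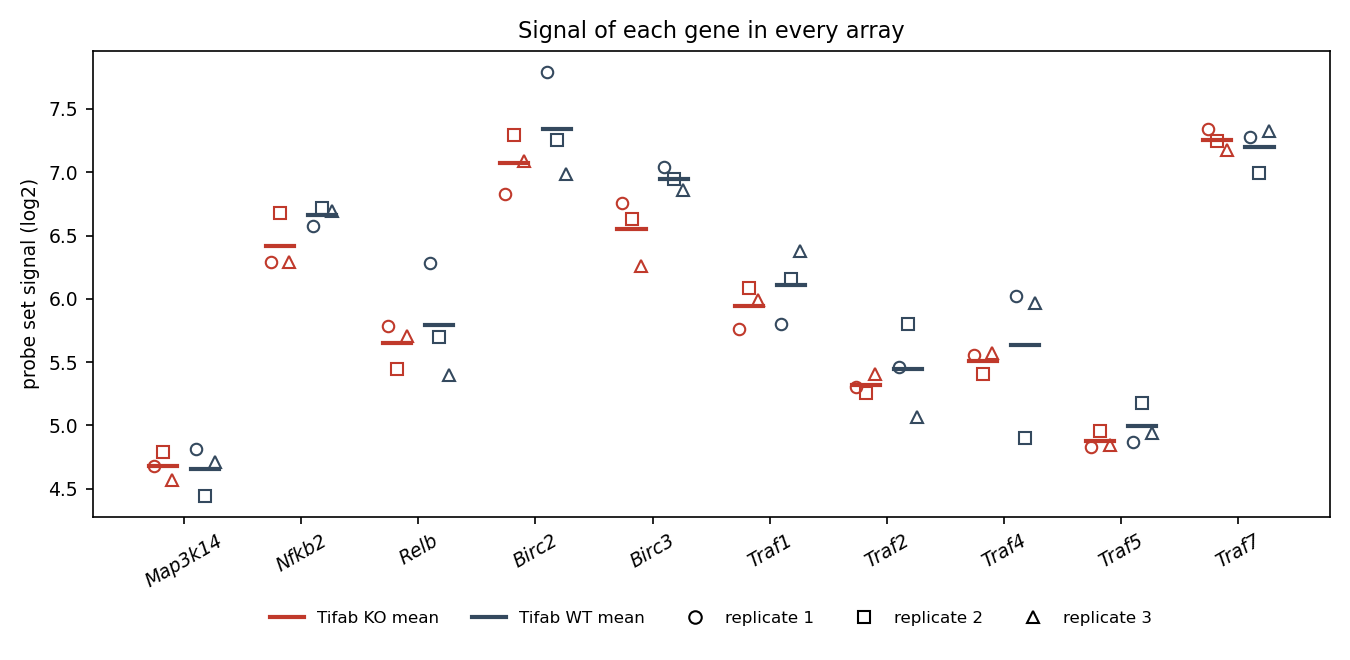
Probe set signal on a log2 scale for each gene, KO arrays in red left of WT arrays in blue, with a point per array, its shape giving the replicate number, and a bar for the mean of 3 arrays. The groups are apart for Birc3 alone, and the widest ranges are those of Traf4 at 1.12 and Birc2 at 0.97, with WT replicate 1 the highest array of each.

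Birc3, which encodes cIAP2, a ubiquitin ligase held by TRAF2 and an NF-kB target, read 6.76, 6.63 and 6.26 in KO arrays, against 7.04, 6.94 and 6.86 in WT arrays (log2 signal). Every KO array lay below every WT array, with a gap of 0.10 between the nearest arrays of the groups and the KO arrays spread more widely. The mean was 6.55 ± 0.26 in KO and 6.95 ± 0.09 in WT (SD, n = 3 each). The log2 fold change was -0.40 ± 0.17 (SE, 95% interval -0.77 to -0.02), or 0.760 of the WT level, with an unadjusted p of 0.042 and an adjusted p of 0.475 in limma. An exact two-sided permutation test over the 6 arrays gave p = 0.1, the smallest that 3 against 3 allows. The unadjusted p was under 0.05 in 9 of 15 alternative fits. It missed that level in limma with array weights and in 5 of the fits that left out an array. The difference came to -0.25 without KO replicate 3, the lowest KO array.

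Birc2, the gene next to Birc3 on chromosome 9 in the RefSeq order, encodes cIAP1, the closely related ligase of the same complex. It read 6.83, 7.29 and 7.09 in KO arrays, against 7.79, 7.25 and 6.99 in WT arrays. The groups overlapped, and WT replicate 1 alone stood above all the others. The log2 fold change was -0.27 ± 0.22 (SE, adjusted p = 0.687 in limma), -0.050 without WT replicate 1, -0.15 without KO replicate 1 and -0.45 without WT replicate 3. Binding of the probes of either gene to RNA of the other was not tested.

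Nfkb2, the gene of p100 and p52, read 6.29, 6.68 and 6.29 in KO arrays, against 6.57, 6.72 and 6.69 in WT arrays. KO replicates 1 and 3 lay below all WT arrays, while KO replicate 2 lay within their range. Nfkb2 differed by -0.24 ± 0.16 on the log2 scale (SE, 95% interval -0.61 to 0.12), or 0.844 of the WT level (adjusted p = 0.626 in limma). Without KO replicate 2 it was -0.37, and without KO replicate 1 or 3 it was -0.18.

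Relb, the gene of the partner of p52, read 5.79, 5.45 and 5.71 in KO arrays, against 6.28, 5.70 and 5.40 in WT arrays. WT replicate 1 was the highest array and WT replicate 3 the lowest, so the KO values lay inside the WT range. Relb differed by -0.14 ± 0.23 on the log2 scale (SE, adjusted p = 0.868 in limma), and by 0.10 without WT replicate 1.

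Map3k14 encodes NIK, the kinase that starts the route. It read 4.68, 4.79 and 4.57 in KO arrays, against 4.81, 4.45 and 4.71 in WT arrays, and the KO range lay wholly inside the WT range. Map3k14 differed by 0.025 ± 0.16 on the log2 scale (SE, adjusted p = 0.973 in limma). Its 95% interval, -0.35 to 0.40, leaves room for a difference of either sign of that size.

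**Figure D2:**
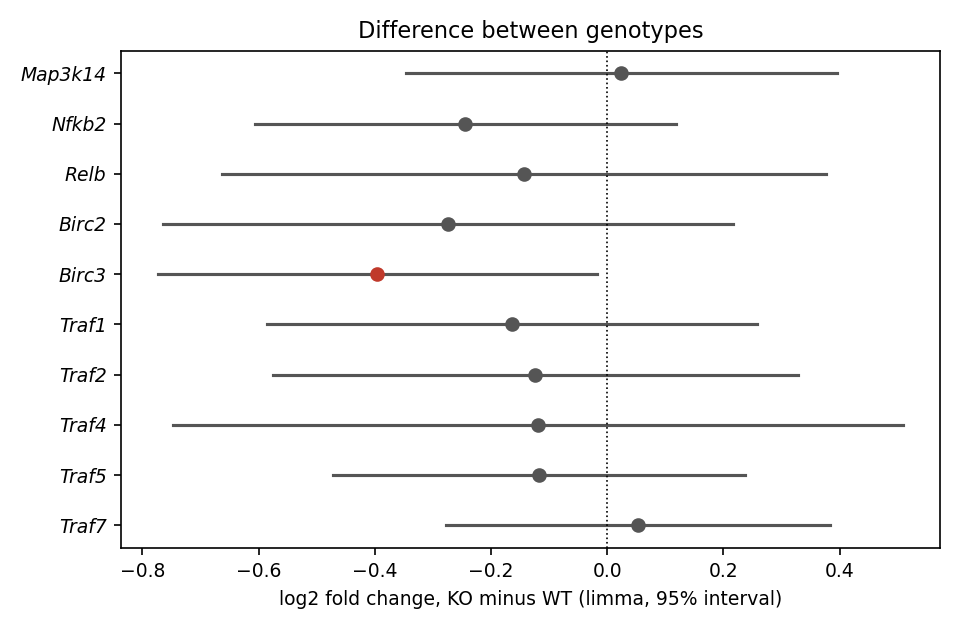
Log2 fold change, KO minus WT, of each gene from limma, with a bar for its 95% interval and red for an unadjusted p under 0.05. The interval of Birc3, -0.77 to -0.02, leaves out 0, and those of the other genes hold it.

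Among the TRAF genes, Traf1 encodes an adaptor without a RING domain that pairs with TRAF2 and is induced by NF-kB. It read 5.76, 6.09 and 5.99 in KO arrays, against 5.80, 6.15 and 6.38 in WT arrays. The groups overlapped, with KO replicate 1 lowest and WT replicate 3 highest. Traf1 differed by -0.16 ± 0.19 on the log2 scale (SE, adjusted p = 0.797 in limma), by -0.032 without WT replicate 3 and by -0.32 without WT replicate 1. With all 6 arrays, the known NF-kB targets Nfkb2, Relb, Birc3 and Traf1 had a log2 fold change below 0. Their median was -0.20, beside -0.12 for the other 6 genes. Relb turned to 0.10 without WT replicate 1. Of 11 further reported NF-kB targets, 7 were below 0 and 4 above. Those 11 do not hold every NF-kB target named here. Ikbke, listed with the partners, had 0.71, and Ccr7, listed with the dendritic cell markers, had -0.62. The grouping of the 4 known targets was made with the values known and has no test.

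Traf2 encodes the adaptor that brings cIAP1 and cIAP2 to TNF family receptors. It read 5.30, 5.25 and 5.40 in KO arrays, against 5.46, 5.80 and 5.06 in WT arrays. The KO arrays lay close together, inside the WT values, which spanned 0.73. Traf2 differed by -0.12 ± 0.20 on the log2 scale (SE, adjusted p = 0.869 in limma), and by 0.055 without WT replicate 2.

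Traf5, whose product binds receptors such as CD40 and CD27 and is closely related to TRAF2 and TRAF3, read 4.83, 4.96 and 4.84 in KO arrays, against 4.87, 5.18 and 4.94 in WT arrays. KO replicates 1 and 3 lay just below all WT arrays, and KO replicate 2 did not. Traf5 differed by -0.12 ± 0.16 on the log2 scale (SE, adjusted p = 0.836 in limma), and by -0.026 without WT replicate 2.

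Traf4 encodes a divergent TRAF protein known from epithelial cells and interleukin-17 signalling. It read 5.55, 5.41 and 5.57 in KO arrays, against 6.03, 4.90 and 5.97 in WT arrays, and so had the widest range of the 10, 1.12. WT replicate 2 lay below every KO array and the other WT arrays above them all. Traf4 differed by -0.12 ± 0.28 on the log2 scale (SE, adjusted p = 0.912 in limma). Without WT replicate 2 it was -0.48 (adjusted p = 0.404 in limma), and without WT replicate 1 it was 0.078.

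Traf7 encodes a protein with a RING domain and WD40 repeats in place of the domain that defines the family. It read 7.34, 7.25 and 7.17 in KO arrays, against 7.28, 6.99 and 7.33 in WT arrays. The groups overlapped, with KO replicate 1 highest and WT replicate 2 lowest. Traf7 differed by 0.053 ± 0.15 on the log2 scale (SE, adjusted p = 0.928 in limma).

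The arrays differed among themselves in ways that touch these values. WT replicate 1 was the highest array for 5 of the 10 genes (Map3k14, Relb, Birc2, Birc3 and Traf4) and correlated least with the rest over all genes, at a mean r of 0.976. WT replicate 2 was the lowest for Map3k14, Traf4 and Traf7 and the highest for Nfkb2, Traf2 and Traf5. In all, 9 of the 10 genes had their highest array in the WT group, and WT replicate 1 made up 5 of these 9. The share was 54.6% over all genes and 49.5% over the genes brighter than the median gene. The lowest array was in the WT group for 5 of the 10, against 55.2% of all genes. These counts were not tested. The SD was larger in WT than in KO for 8 of the 10, all but Nfkb2 and Birc3, against 60.7% of all genes. With equal weight on each gene, the mean of the 10 was 5.91, 5.98 and 5.89 in KO arrays, against 6.19, 6.01 and 6.03 in WT arrays.

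**Figure D3:**
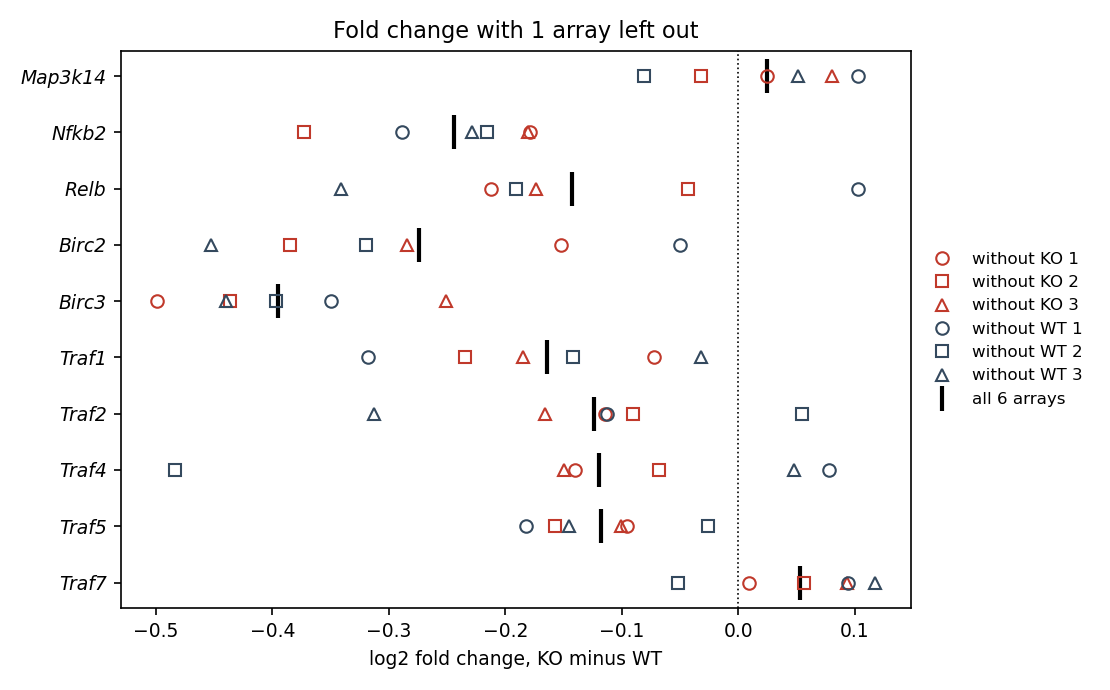
Log2 fold change, KO minus WT, of each gene with all 6 arrays (black bar) and with each array left out, KO arrays in red and WT arrays in blue, the shape giving the replicate. Nfkb2, Birc2, Birc3, Traf1 and Traf5 stayed below 0 in each of these fits, while Map3k14, Relb, Traf2, Traf4 and Traf7 crossed 0.

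The genes most like Birc3 in pattern were sought among the 11089 other genes brighter than the median gene. Over the 6 arrays the highest Pearson correlations were those of Ccdc138 at 0.993, Tmem164 at 0.992 and Cic at 0.991. With 6 arrays and so many genes, such values describe these arrays only. Ccdc138 differed by -0.53 and Tmem164 by -0.41 on the log2 scale, while Cic, which encodes a transcriptional repressor, differed by -0.04 over a range of 0.095.

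Around these genes, the receptors of the TNF family were mostly on the higher side, and none passed the test. Lists of receptors, ligands, partners and targets were likewise chosen with earlier results of these data known. Of 14 measured receptors, 10 were on the higher side in KO arrays and 4 on the lower, where 50% of all genes lay below 0. Tnfrsf18 at 0.001, Ltbr at 0.046, Tnfrsf13b at -0.045 and Tnfrsf4 at -0.057 were near 0. The median difference of the 14 was 0.16 on the log2 scale (0.078 without WT replicate 2 and 0.098 without KO replicate 3). Without genes under the 40th percentile of signal it was 0.125. In limma 0 of the 14 receptors had an unadjusted p under 0.05, against 10.3% of all genes. Cd27, a receptor of progenitors and lymphocytes that binds TRAF2 and TRAF5, read 8.08, 8.03 and 7.83 in KO arrays, against 7.70, 7.81 and 7.81 in WT arrays. Its groups did not overlap, at 0.20 ± 0.13 (SE, adjusted p = 0.613 in limma). Tnfrsf9, which encodes the co-stimulatory receptor 4-1BB, was the other receptor without overlap, on the lower side at -0.30 ± 0.16 (SE). Of all genes, 16.1% had groups without overlap. The TNF receptor gene Tnfrsf1a had 0.28, Cd40 0.34 and Tnfrsf8, the CD30 gene, 0.26. These came to 0.17 and 0.18 without KO replicate 1 for Tnfrsf1a and Cd40, and to 0.13 without KO replicate 3 for Tnfrsf8. Cd40, Tnfrsf8 and Tnfrsf9 lay under the 40th percentile of signal. Tnfrsf17, the plasma cell receptor gene BCMA, read 4.94, 6.37 and 5.00 in KO arrays, against 3.24, 3.40 and 6.41 in WT arrays. Its log2 fold change of 1.09 became 2.12 without WT replicate 3, and 0.53 without WT replicate 1, 0.61 without WT replicate 2 and 0.62 without KO replicate 2. The plasma cell gene Jchain was likewise highest in WT replicate 3, at 10.39, with 9.73 to 9.87 in KO arrays and 8.42 and 8.99 in the other WT arrays.

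Of 11 measured ligands, 1 was lower at an unadjusted p under 0.05 (5.51% of all genes) and 0 were higher (4.74% of all genes). Their median of -0.03 had no stable sign, at 0.057 without KO replicate 2, 0.056 without WT replicate 2 and -0.085 without KO replicate 3. The lower gene was Ltb, the gene of lymphotoxin beta, a ligand of the lymphotoxin beta receptor that feeds this route. Ltb read 7.21, 7.37 and 7.75 in KO arrays, against 8.001, 8.10 and 7.85 in WT arrays, without overlap. The log2 fold change was -0.53 ± 0.17 (SE, adjusted p = 0.362 in limma), and -0.69 to -0.42 over the alternative fits. Its receptor gene Ltbr had 0.05 ± 0.14 (SE). Tnfsf14, the gene of LIGHT, had -0.42 (-0.12 without KO replicate 1, -0.20 without WT replicate 2 and -0.73 without KO replicate 3). Tnfsf8, the CD30 ligand gene, had -0.36, or 0.06 without WT replicate 2, and Tnfsf9, the 4-1BB ligand gene, 0.30, or 0.04 without WT replicate 1. Tnfsf13b, the BAFF gene, had 0.20, or 0.06 without KO replicate 1 or WT replicate 1. Cd40lg had -0.16, or -0.04 after quantile normalization, -0.06 after cyclic loess and 0.05 without WT replicate 2. Tnfsf8, Tnfsf13b and Cd40lg lay under the 40th percentile of signal. The ligands Tnfsf12 and Tnfsf13 were not analysed here.

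Of 26 measured partners and regulators, 1 was above WT (4.74% of all genes) and 1 below (5.51%) with an unadjusted limma p under 0.05. The median was -0.07, or -0.045 without KO replicate 1. Ikbke, the gene of the kinase IKK-epsilon, which binds TRAF-linked scaffolds and is induced by NF-kB and interferon, read 5.91, 6.22 and 5.89 in KO arrays, against 5.02, 5.35 and 5.52 in WT arrays. The groups did not overlap, and the log2 fold change was 0.71 ± 0.19 (SE, adjusted p = 0.334 in limma). Diablo, the gene of the mitochondrial protein SMAC that antagonises cIAP1 and cIAP2, read 6.84, 6.87 and 6.57 in KO arrays, against 7.41, 7.34 and 6.87 in WT arrays. Its groups overlapped, with KO replicate 2 just above WT replicate 3. Its log2 fold change was -0.45 ± 0.18 (SE, adjusted p = 0.461 in limma). Traf3ip3, the gene of a TRAF3-binding protein of lymphocytes, had 0.31 ± 0.16 (SE) without overlap between the groups. Tnfaip3, which encodes the ubiquitin-editing enzyme A20, had -0.30 and Traip -0.28. Of the canonical subunits, Rela had -0.21 ± 0.12 (SE) without overlap and Rel -0.19 ± 0.17 (SE). Without WT replicate 1 the value was -0.11 for Rela and -0.19 for Tnfaip3, and Rel had -0.33 without KO replicate 1, -0.08 without WT replicate 3 and -0.09 without KO replicate 3. Traf6 itself read 6.24, 5.47 and 5.57 in KO arrays, against 6.23, 5.91 and 5.76 in WT arrays, at -0.21 ± 0.23 (SE, adjusted p = 0.790 in limma, with -0.45 to -0.06 over the alternative fits). Traf3, Chuk, Nfkb1, Ripk1 and Zfp91 were not analysed here.

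Among 11 measured target genes reported for NF-kB, 2 were lower at an unadjusted p under 0.05 and 0 higher, where 5.51% of all genes were lower. Ikbke and Ccr7, which stand in other lists, are not among them. Of the 11, 7 were below 0, with a median of -0.10. That median was -0.20 without WT replicate 2, -0.042 without WT replicate 1, -0.038 without WT replicate 3 and -0.062 without KO replicate 3. Without genes under the 40th percentile of signal it was -0.062. Vcam1, an adhesion molecule that is also a macrophage marker of marrow, read 4.31, 4.75 and 4.26 in KO arrays, against 5.59, 5.12 and 4.85 in WT arrays. The log2 fold change was -0.74 ± 0.23 (SE, adjusted p = 0.356 in limma), without overlap. Icam1, an adhesion molecule that binds leukocyte integrins, had -0.47 ± 0.19 (SE, adjusted p = 0.455 in limma), with overlap between the groups. Cxcl13, a B cell chemokine and known noncanonical target, had -0.45, or -0.24 without WT replicate 1, and Cxcl12, another such target, -0.14, or -0.09 without WT replicate 3. Cxcl13 lay under the 40th percentile of signal, at 3.37 to 3.63 in KO arrays and 3.62 to 4.39 in WT arrays. The survival gene Bcl2 had 0.36, or 0.20 without WT replicate 1 and 0.56 without WT replicate 3. Icosl, a co-stimulatory ligand, had 0.22, and between 0.06 and 0.43 with an array left out.

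**Figure D4:**
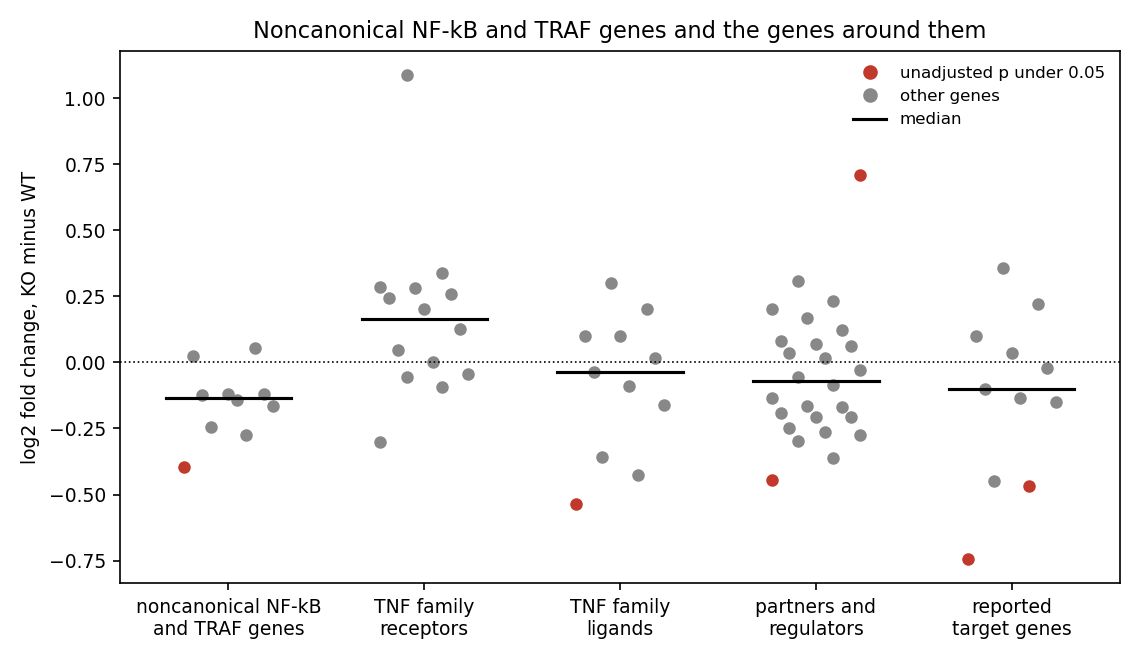
Log2 fold change, KO minus WT, of the 10 genes and of 14 receptors, 11 ligands, 26 partners and 11 reported targets, a point per gene, red for an unadjusted p under 0.05, with a line at each median. The medians are -0.13, 0.16, -0.03, -0.07 and -0.10, each of which moves by over 1.5 times with some array left out, and the highest point among the receptors is Tnfrsf17 at 1.09.

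The sort and the labels were checked against markers. Kit read 9.41 to 9.59 in KO arrays, against 9.50 to 9.69 in WT arrays. Cd34 read 10.47 to 10.66 in KO arrays, against 10.32 to 10.55 in WT arrays, and Flt3 read 8.12 to 8.48 in KO arrays, against 8.44 to 8.58 in WT arrays. Ly6a, the gene of Sca1, was not analysed here. Genes of mature cells were bright as well. The neutrophil gene S100a8 read 11.41 to 11.56 in KO arrays, against 11.53 to 11.57 in WT arrays, above Kit. These readings do not show how pure the sort was. The Tifab probe set itself read 5.21, 5.12 and 5.26 in KO arrays, against 4.99, 5.37 and 5.53 in WT arrays, and so did not separate the genotypes. The sources used here do not place its probes relative to the deletion, so all directions rest on the labels.

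Mature B cells, dendritic cells and macrophages are known to use Relb, Nfkb2, Traf1 and Birc3. The summed signal of 9 dendritic cell markers was 10.79 to 10.99 in KO arrays, against 10.61 to 10.93 in WT arrays (log2 of the sum). That of 9 B and plasma cell markers was 10.30 to 10.65 in KO arrays, against 9.33 to 10.999 in WT arrays. For 10 neutrophil markers it was 12.49 to 12.76 in KO arrays, against 12.53 to 12.74 in WT arrays. A sum rests mostly on the brightest markers. The bright dendritic cell markers include Flt3, which was also read above to check the sort, so their sum is not particular to dendritic cells. The median signal of the dendritic cell markers, which was that of Ccr7, averaged 4.81 in KO arrays and 5.43 in WT arrays. Such medians were 7.20 in KO against 7.43 in WT for neutrophils, and 4.77 against 4.59 for B and plasma cells. At an unadjusted p under 0.05 in limma, 1 of the 9 dendritic cell markers, 0 of the 9 B and plasma cell markers and 2 of the 10 neutrophil markers were lower, and 0 were higher in each list. Of 9 T and NK cell markers and 10 markers of stroma and endothelium, 0 had an unadjusted p under 0.05 in limma. By the same rule 5.51% of all genes were lower and 4.74% higher. The sum of 10 macrophage and monocyte markers was higher, at 11.48 to 11.93 in KO arrays, against 10.40 to 11.28 in WT arrays, and lay mostly in Ly6c2, which read 11.12 to 11.73 in KO arrays, against 9.86 to 10.96 in WT arrays. The median signal of the same markers averaged 5.05 in KO arrays and 5.12 in WT arrays. In that list 2 genes were higher (Ly6c2 and C1qa) and 2 lower (Vcam1 and C1qb) at an unadjusted p under 0.05, beside 4.74% and 5.51% of all genes. Among the dendritic cell markers Ccr7, also an NF-kB target, had -0.62 ± 0.19 (SE). The part of any such cells in the values of Birc3, Nfkb2, Relb and Traf1 was not tested.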

How the data were processed

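The authors deposited log2 probe set values for 6 arrays and 41345 probe sets, with array medians of 4.05 to 4.10. Per the submitters' processing notes they came from Affymetrix Expression Console; the sources used here do not give the summary, background and normalization methods. They were used as deposited. The number of arrays limits precision, and low signals compress fold changes.

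The platform annotation gave 23521 probe sets 1 symbol and 1814 several, and 16010 were not listed. Those with 1 symbol left 22180 genes, each represented by its probe set of highest mean over the 6 arrays. KO was compared with WT in limma 3.58.1 (R 4.3.3, lmFit and eBayes with an intensity trend, genotype as the only term, two-sided, Benjamini-Hochberg over 22180 genes, threshold 0.05), after testing on simulated data. Lists are described by counts and medians, with no set test. The labels give 3 mice per group.

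The text names all 10 genes, up to 6 of each pathway list by p, further TRAF and NF-kB subunit genes where measured, and the 3 genes most like the gene of lowest p. The genes and lists were chosen with earlier results of these data known. Alternatives were other moderation, array weights, other normalizations, a filter on dim genes, other probe set rules, a block for the replicate number, leaving out each array, an exact permutation test and an adjusted p of 0.1. Same-numbered arrays of the groups did not deviate together (correlations of 0.02, -0.03 and -0.09 across genes), so the numbers were not taken as pairs.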

Additional observations from a re-analysis of the deposited data

How the results depend on the processing

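None of the 10 genes passed the adjusted threshold in limma in any of the 15 alternative fits, or at an adjusted p under 0.1 in the main one. The lowest adjusted p was 0.404, for Traf4 without WT replicate 2. Map3k14 turned to -0.014 after cyclic loess. With an array left out, log2 fold changes ran from -0.081 to 0.10 for Map3k14, -0.34 to 0.10 for Relb, -0.31 to 0.055 for Traf2, -0.48 to 0.078 for Traf4 and -0.052 to 0.12 for Traf7. The count of genes of the set lower at an unadjusted p under 0.05 was 0 with array weights and 0 to 1 with an array left out. That 1 gene was Birc3 without KO replicate 1 and Traf4 without WT replicate 2. Over all genes, 1222 were lower and 1052 higher at that level as deposited, 848 and 1190 after quantile normalization, and 456 and 762 without genes under the 40th percentile of signal, where fewer genes were tested; 0 to 1 passed the adjusted threshold with an array left out. With the replicate number as a block, Birc3 had -0.40 (adjusted p = 0.513 in limma), with 1181 genes lower and 938 higher at an unadjusted p under 0.05; the block changed no call among the 10 genes and 0 genes passed the adjusted threshold. The cause of these shifts was not tested. With 3 arrays a group, the 95% intervals reach 0.33 to 0.63 on either side of the log2 fold changes.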
